A study of Mus musculus with 12 samples.

Results

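Polycomb proteins keep the Hox clusters silent in cells where those genes should not be read, and 10 genes that encode them were followed here through the forelimb zeugopod, the segment that forms the radius and ulna. The genes were chosen by name: *Ezh2*, *Ezh1*, *Eed*, *Suz12* and *Jarid2* of Polycomb repressive complex 2 (PRC2), and *Rnf2*, *Bmi1*, *Cbx2*, *Cbx7* and *Cbx8* of complex 1 (PRC1). All 10 had a row among the 36186 rows of the expression table, and 8 passed the filter on low values, as did 10936 rows in all. *Cbx7* and *Cbx8* did not pass it, so their values are given without a test.

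PRC2 places methyl groups on lysine 27 of histone H3, with EZH2 or its paralog EZH1 as the enzyme and EED and SUZ12 as the partners it needs. PRC1 binds chromatin that carries this mark through a CBX protein and attaches ubiquitin to histone H2A through RNF2. In the limb, both complexes hold parts of the HoxA and HoxD clusters silent, and Trithorax proteins work in the opposite direction.

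The data were 12 RNA-Seq libraries from mouse embryos at E15.5 on a mixed 129/CD-1 background, each prepared from cartilage cut out by laser capture microdissection (LCM). WT zeugopods gave 3 libraries each of resting, proliferative and hypertrophic chondrocytes. The sample labels name the hypertrophic compartment hyperproliferative. The other 3 libraries came from *aadd* mutants, which carry homozygous frameshift mutations in the first exons of *Hoxa9*, *Hoxa10*, *Hoxa11*, *Hoxd9*, *Hoxd10* and *Hoxd11*. Their labels give the compartment as resting, but the whole chondrocyte population of the reduced *aadd* element was taken, so compartment and genotype cannot be fully told apart. Samples of every group held some flanking perichondrium. The study describes the replicates as independent sets of compartments, but the labels do not say which libraries form a set or whether each came from a different embryo, so *P* values measure the spread between libraries only.

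The filter asked for 5 NRPKM in 3 or more of the 12 libraries, and 2 groups were compared by limma with the criteria of the study, which are an unadjusted *P* of 0.05 or less and a fold change (FC) of 2 or more between WT compartments or 1.5 or more between *aadd* and WT resting. Values are NRPKM, reads scaled by exon length and library depth, followed by a further normalization between libraries. On a row with 1 kb of exon, 1 read was worth 0.309 to 0.53 NRPKM. The 6 mutated Hox genes were still read in *aadd*, which a frameshift allows. *Hoxd11* stood at 25.1, 30.0 and 35.4 NRPKM there against 5.80, 4.34 and 7.31 in WT resting, and *Hoxa11* at 11.1, 5.17 and 10.0 against 23.0, 30.5 and 11.3. Summed over 6 chondrocyte markers, the libraries lay at 1708 to 2667 NRPKM in WT resting, 1917 to 3184 in WT proliferative, 425 to 1794 in WT hypertrophic and 1475 to 2059 in *aadd*, with no marker at 0 throughout a group. WT hypertrophic replicates 2 and 3 stood apart: 10 osteoclast markers summed to 1308 and 963 NRPKM in them and to 40.9 to 70.3 in the other 10 libraries. Their sums of 10 endothelial markers were 311 and 218 NRPKM and of 10 macrophage markers 285 and 231, where the other 10 libraries had at most 37.3 and 44.4, and no marker of these lists was at 0 throughout WT hypertrophic. The macrophage sums came mostly from *Cd68*, *Csf1r* and *Lyz2*, which reached 174, 56.7 and 37.1 NRPKM in WT hypertrophic. *Adgre1*, *C1qa*, *C1qb*, *C1qc* and *Mrc1* each had a higher mean in another group. *Cd14* and *Fcgr3* had their highest means in WT hypertrophic, at 1.23 and 0.786 NRPKM. WT hypertrophic replicate 1 had the highest chondrocyte marker sum of its group, 1794 NRPKM against 425 and 601 in replicates 2 and 3. Its 4 hypertrophic markers summed to 1008 against 2953 and 3191, and 3 proliferative to prehypertrophic markers to 558 against 318 and 327. The part of these differences in the hypertrophic comparisons was not tested. In bulk libraries of this kind, fewer cells of a type and less RNA per cell cannot be told apart.

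Promoters rich in unmethylated CpG are a known landing place of Polycomb complexes, and the promoters of the Polycomb genes themselves were examined for CpG and for 3 motifs. RefSeq promoters of 300 bases on GRCm38.p6, from 250 before the start to 50 after it, were found for 9 of the 10 genes, 10 promoters in all because *Jarid2* has 2 starts. *Cbx2* had no entry. The 10 promoters held 17 to 41 CpG, with a median of 24. The median was 7 over all 32851 promoters in the table and 21 over the 10866 promoters of rows that passed the filter, with quartiles of 13 and 29. The median of the set lay between these quartiles. No promoter of the set lay below the lower quartile, and those of *Ezh2* (31), *Suz12* (41), *Cbx7* (33) and *Rnf2* (30) lay above the upper one.

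A search on both strands for TTTNGCGC, the letters bound by E2F factors of the cell cycle, found it in 1.38% of all promoters and in 2.56% of those of rows tested. Among the 10 promoters of the set it was in that of *Ezh2* alone, from 3 to 10 bases past the start. The CCAAT box was in 37.4% of all promoters and in 7 of the 10, with 3 copies in *Ezh2*, against 38.1% of promoters of rows tested. The cAMP response element TGACGTCA was in 1.79% of all promoters and in 3.17% of those of rows tested, with *Cbx8* alone in the set. None of these matches overlapped another. 4 of the promoters are printed 5′ to 3′ with these letters in capitals on either strand: *Ezh2* and *Ezh1* because the paralogs differ in them, *Suz12* for the highest CpG count of the set, 41, and *Cbx8* for the cAMP element. A match of letters is no evidence of binding, and the search for them in *Ezh1* found none in this window.
Ezh2, chr6:47594981-47595280, minus strand: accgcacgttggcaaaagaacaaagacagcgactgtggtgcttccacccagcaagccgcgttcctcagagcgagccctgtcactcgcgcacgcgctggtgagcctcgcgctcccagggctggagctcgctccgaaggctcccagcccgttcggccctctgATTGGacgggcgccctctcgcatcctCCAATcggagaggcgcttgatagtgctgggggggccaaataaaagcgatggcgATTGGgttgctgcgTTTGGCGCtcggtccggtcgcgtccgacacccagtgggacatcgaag
Ezh1, chr11:101226414-101226713, minus strand: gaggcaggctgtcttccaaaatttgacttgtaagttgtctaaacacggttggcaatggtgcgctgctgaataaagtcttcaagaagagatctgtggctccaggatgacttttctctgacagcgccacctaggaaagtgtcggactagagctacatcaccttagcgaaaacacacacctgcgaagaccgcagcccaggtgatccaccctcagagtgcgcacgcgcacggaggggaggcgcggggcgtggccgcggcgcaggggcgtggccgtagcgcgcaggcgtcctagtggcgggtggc
Suz12, chr11:79992856-79993155, plus strand: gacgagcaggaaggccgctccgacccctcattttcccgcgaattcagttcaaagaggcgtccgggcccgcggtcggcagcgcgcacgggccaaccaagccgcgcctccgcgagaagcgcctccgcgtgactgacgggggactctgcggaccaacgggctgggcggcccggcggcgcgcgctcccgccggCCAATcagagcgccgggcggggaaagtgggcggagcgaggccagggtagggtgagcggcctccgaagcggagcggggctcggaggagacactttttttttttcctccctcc
Cbx8, chr11:119040864-119041163, minus strand: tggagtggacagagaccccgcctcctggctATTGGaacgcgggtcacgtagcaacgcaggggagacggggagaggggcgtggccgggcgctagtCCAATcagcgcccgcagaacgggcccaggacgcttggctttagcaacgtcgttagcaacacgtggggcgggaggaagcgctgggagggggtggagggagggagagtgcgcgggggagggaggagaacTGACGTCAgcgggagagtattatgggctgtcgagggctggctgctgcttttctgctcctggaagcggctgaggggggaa

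Levels per length ran from abundant PRC2 and ligase genes down to CBX genes near the limit of detection. Over the 12 libraries the mean was 45.2 NRPKM for *Ezh2*, 25.0 for *Rnf2*, 22.7 for *Suz12*, 18.0 for *Eed* and 14.4 for *Jarid2*. It was 8.45 for *Cbx2*, 8.19 for *Bmi1* and 7.61 for *Ezh1*, then 2.08 for *Cbx8* and 0.233 for *Cbx7*. *Ezh2* exceeded *Rnf2* in 12 of 12 libraries and *Ezh1* exceeded *Cbx8* in 12 of 12, with ranges that did not meet. The order of *Cbx2*, *Bmi1* and *Ezh1* was not separated by the spread: *Cbx2* lay above *Bmi1* in 6 of 12 libraries and *Bmi1* above *Ezh1* in 8 of 12. *Rnf2* was above *Suz12* in 10 of 12, *Suz12* above *Eed* in 11, *Eed* above *Jarid2* in 9, *Jarid2* above *Cbx2* in 11 and *Cbx8* above *Cbx7* in 11.

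**Figure D1:**
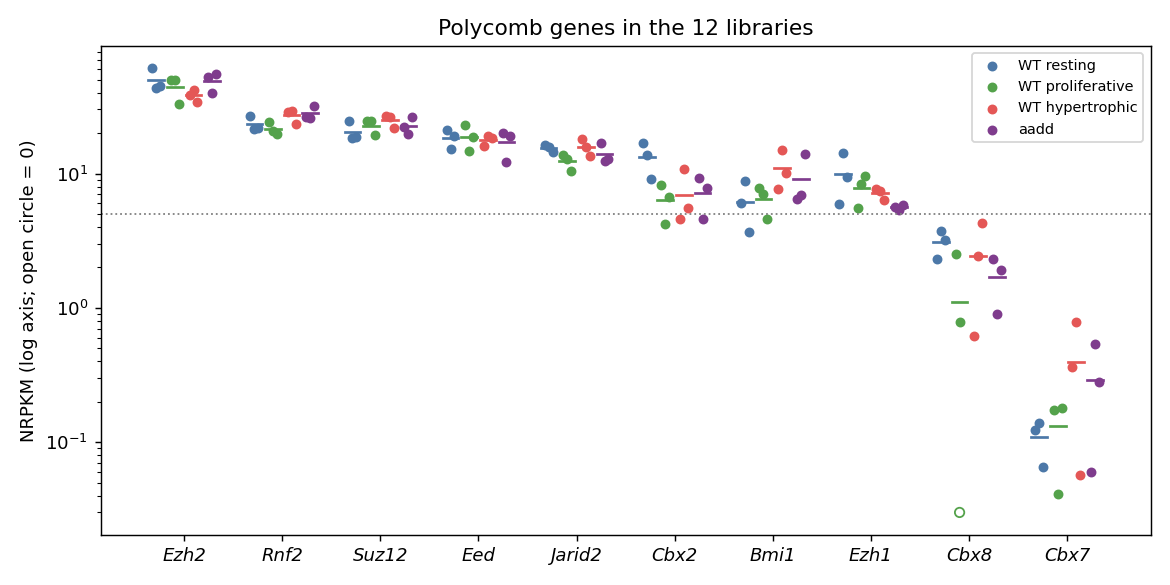
Level of each of the 10 Polycomb genes in each library, in NRPKM on a log axis, with 3 points per group and a short line at the group mean. The open circle is a value of 0 and the dotted line is the filter at 5 NRPKM. *Ezh2* lies highest in every library and *Cbx7* and *Cbx8* lie below the line in all 12.

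Counted over the set, from WT resting to proliferative 1 of the 8 genes tested met the criteria (FC of 2 or more and an unadjusted *P* of 0.05 or less), against 5.53% of all rows in either direction and 2.97% lower, and 2 of 8 had no overlap between groups, against 24% of all rows. From proliferative to hypertrophic 0 of 8 met them (9.67% of all rows) and 0 of 8 had no overlap (24.2%). From resting to hypertrophic 0 of 8 met them (13%) and 1 of 8 had no overlap (32%). In *aadd* against WT resting, where the FC asked was 1.5, 1 of 8 met them, also lower (6.56% in either direction, 2.78% lower) and 1 of 8 had no overlap (15.4%). Counts of 0 or 1 call among 8 genes lie near these shares and are no result about the set.

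No gene of the set had an adjusted *P* under 0.05 in limma in any pairwise comparison, where 0.622%, 0%, 6.36% and 0.119% of all rows did in the same order. Without the FC criterion, 1, 0, 1 and 1 of 8 reached an unadjusted *P* of 0.05, against 17.1%, 19.3%, 26.4% and 9.58% of all rows. In limma's F test over the 4 groups, 0 of 8 had an adjusted *P* under 0.05 and 0 of 8 an unadjusted *P* up to 0.05, against 13.8% and 31% of all rows. The smallest was that of *Cbx2* (limma adjusted *P* = 0.20). The median size of the log2 fold change over the 8 genes was 0.17, 0.16, 0.33 and 0.21 in the 4 pairwise comparisons, and over all rows it was 0.28, 0.35, 0.37 and 0.20.

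**Figure D2:**
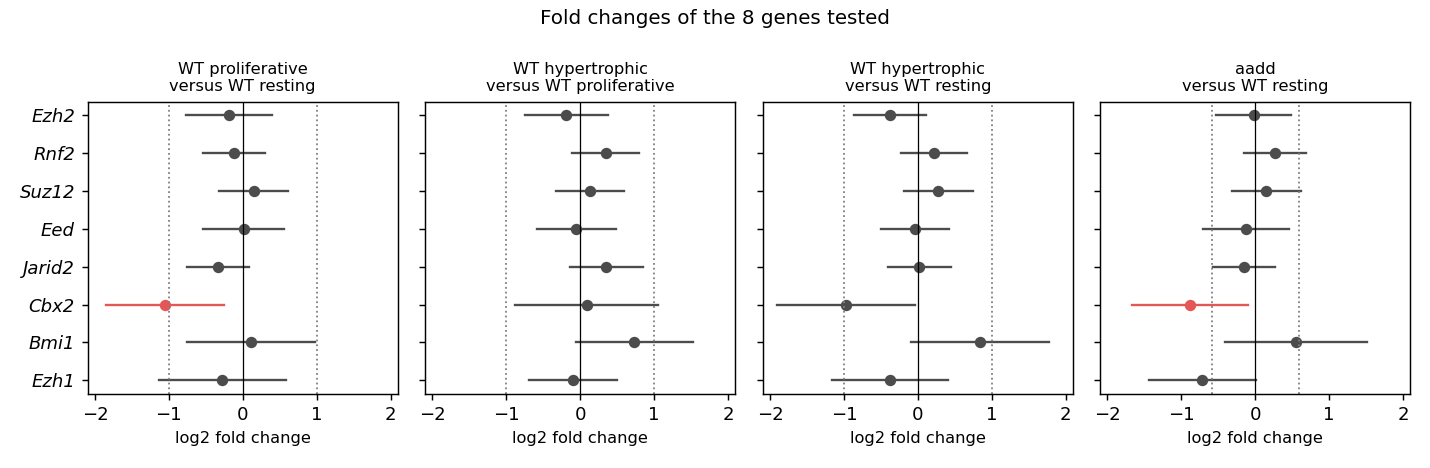
Log2 fold change of the 8 genes tested in the 4 pairwise comparisons, with 95% intervals from limma (3 libraries in each group) and dotted lines at the fold criterion of the comparison. *Cbx2*, in red, met the criteria from WT resting to proliferative (-1.05) and in *aadd* (-0.88), and the interval of *Ezh1* in *aadd* reaches from -1.44 to 0.01.

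*Ezh2* (chr6:47530274-47595338, minus strand, mm10), the main methyltransferase of PRC2 in dividing cells, was at 60.9, 43.4 and 45.0 NRPKM in the 3 WT resting libraries and at 49.4, 50.1 and 32.7 in WT proliferative. It was at 38.6, 41.8 and 34.0 in WT hypertrophic and at 52.2, 39.6 and 54.7 in *aadd*. All 3 hypertrophic libraries lay below all 3 resting libraries, while every other pair of groups overlapped. The log2 fold change from WT resting to hypertrophic was -0.37 with SE 0.20 and a 95% interval of -0.86 to 0.12 (limma adjusted *P* = 0.29). Between *aadd* and WT resting it was -0.02 (SE 0.21, interval -0.53 to 0.48). Of 10 cell cycle markers, 0 met the criteria in any of the 4 pairwise comparisons, and their summed level was 382 to 519 NRPKM in WT resting, 370 to 447 in proliferative, 271 to 490 in hypertrophic and 408 to 492 in *aadd*. Their part in the level of *Ezh2* was not tested.

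*Ezh1* (chr11:101191115-101226450, minus strand), the paralog that is retained in cells that no longer divide, was at 5.92, 14.1 and 9.49 NRPKM in WT resting and at 5.57, 8.42 and 9.52 in WT proliferative. It was at 7.66, 7.46 and 6.37 in WT hypertrophic and at 5.63, 5.35 and 5.84 in *aadd*. The *aadd* libraries were closely grouped and lay below all WT resting libraries, but by a small margin from WT resting replicate 1. The log2 fold change in *aadd* was -0.72 with SE 0.31 and a 95% interval of -1.44 to 0.01 (limma adjusted *P* = 0.53), which did not meet the criteria. It met them when WT resting replicate 1 was left out, at -1.04 (limma adjusted *P* = 0.25), and under 4 other settings given at the end. The change to hypertrophic was -0.37 (SE 0.33, interval -1.16 to 0.41).

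The partners of the enzyme had the narrowest group means of the set, with highest over lowest of 1.10 for *Eed* and 1.21 for *Suz12*, where the other 8 genes had 1.28 or more. *Eed*, which reads the methyl mark and stimulates the enzyme, was at 20.9, 15.3 and 19.1 NRPKM in WT resting and between 12.1 and 23.0 in the 12 libraries, and the 4 group means lay between 17.1 and 18.8. *Suz12*, which holds the complex together, was at 24.5, 18.4 and 18.7 in WT resting and between 18.4 and 26.7 in all, and its group means lay between 20.5 and 24.9. Their log2 fold changes in *aadd* were -0.13 (SE 0.25, interval -0.71 to 0.45) and 0.15 (SE 0.20, interval -0.32 to 0.61). Both intervals reach past a 1.5-fold change in 1 direction, so a change of that size could not be told from none with 3 libraries in each group.

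*Jarid2*, an accessory subunit that helps PRC2 find its sites, was at 16.3, 15.7 and 14.4 NRPKM in WT resting and at 13.8, 12.8 and 10.4 in WT proliferative. It was at 18.0, 15.8 and 13.5 in WT hypertrophic and at 16.8, 12.5 and 12.9 in *aadd*. The proliferative libraries lay below all resting libraries and reached up into the hypertrophic ones. The log2 fold change from resting to proliferative was -0.34 with SE 0.17 and an interval of -0.75 to 0.08 (limma adjusted *P* = 0.38).

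*Ezh2* was next set against its partners within each library, in 5 ratios chosen after the values had been seen, so these are descriptions without a test. An exact permutation test of 3 libraries against 3 cannot give a *P* below 0.1. The ratio of *Ezh2* to *Suz12* was 2.49, 2.36 and 2.40 in WT resting, 2.02, 2.04 and 1.69 in proliferative, 1.45, 1.60 and 1.57 in hypertrophic and 2.36, 2.02 and 2.07 in *aadd*. The 3 WT compartments did not overlap, and *aadd* lay between resting and proliferative with contact to both. The ratio of *Ezh2* to *Rnf2* was 2.01 to 2.28 in WT resting, 1.67 to 2.43 in proliferative, 1.34 to 1.45 in hypertrophic and 1.53 to 1.98 in *aadd*, so the hypertrophic libraries were again lowest. The ratio of *Ezh2* to *Ezh1* ranged from 3.07 to 10.3 within WT resting alone and was 9.26, 7.41 and 9.37 in *aadd*. Against *Eed*, *Ezh2* stood at 2.36 to 2.91 in WT resting, 1.76 to 3.43 in proliferative, 1.848 to 2.425 in hypertrophic and 2.598 to 3.275 in *aadd*. There the lowest library was a proliferative one, and hypertrophic overlapped resting. The ratio of *Rnf2* to *Bmi1* ran from 1.96 to 5.92 over the 12 libraries.

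**Figure D3:**
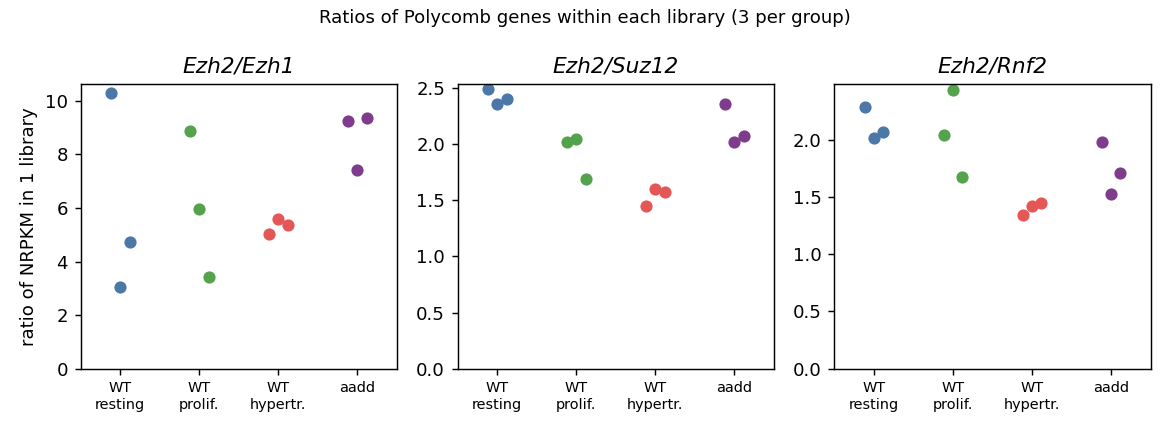
Ratio of *Ezh2* to *Ezh1*, to *Suz12* and to *Rnf2* in each library, as NRPKM over NRPKM on linear axes from 0, with 1 point per library and 3 per group. For *Suz12* the WT hypertrophic points lie at 1.45 to 1.60 and the WT resting points at 2.36 to 2.49, while for *Ezh1* the WT resting points alone run from 3.07 to 10.3.

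Of the PRC1 genes, *Rnf2*, which encodes the ubiquitin ligase, was at 26.7, 21.5 and 21.8 NRPKM in WT resting and at 24.2, 20.6 and 19.6 in WT proliferative. It was at 28.8, 29.4 and 23.6 in WT hypertrophic and at 26.4, 26.0 and 32.0 in *aadd*. The *aadd* group overlapped WT resting because WT resting replicate 1 reached 26.7. The log2 fold change in *aadd* was 0.27 (SE 0.17, interval -0.15 to 0.68, limma adjusted *P* = 0.69).

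*Bmi1*, which encodes a partner that activates RNF2, was at 6.07, 8.82 and 3.69 NRPKM in WT resting and at 7.83, 6.99 and 4.57 in WT proliferative. It was at 7.70, 15.0 and 10.1 in WT hypertrophic and at 6.51, 6.92 and 14.1 in *aadd*. The highest values were in WT hypertrophic replicate 2 and *aadd* replicate 3, and every pair of groups overlapped. Between WT resting and hypertrophic the log2 fold change was 0.84 with SE 0.39 and an interval of -0.09 to 1.78 (limma adjusted *P* = 0.23), and from proliferative to hypertrophic 0.73 with SE 0.33 (limma adjusted *P* = 0.28). The change from resting met the criteria when WT resting replicate 2 was left out, at 1.14, or WT hypertrophic replicate 1, at 1.06. Hypertrophic replicates 2 and 3, the pair with osteoclast marker sums of 1308 and 963 NRPKM, were also the hypertrophic libraries with the most *Bmi1*, and the part of other cell types in its level was not tested.

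*Cbx2* (chr11:119023029-119031270, plus strand), which encodes a CBX subunit that compacts chromatin at Hox clusters, was the only gene of the set to meet the criteria in any comparison. It was at 16.9, 13.7 and 9.10 NRPKM in WT resting and at 8.27, 4.19 and 6.65 in WT proliferative. It was at 4.60, 10.8 and 5.57 in WT hypertrophic and at 9.22, 4.62 and 7.75 in *aadd*. WT resting stood highest as a group, at 13.3 ± 3.95 (SD, n = 3) against means of 6.37 ± 2.05, 6.98 ± 3.31 and 7.20 ± 2.35 in the other groups. The proliferative libraries all lay below the resting ones, whereas hypertrophic replicate 2 and *aadd* replicate 1 lay above WT resting replicate 3. These values stood for 30.5 to 191 reads, a counting error of 7.24% to 18.1%, which is smaller than the spread between libraries of any group.

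The log2 fold change of *Cbx2* from WT resting to proliferative was -1.05 with SE 0.33 and a 95% interval of -1.85 to -0.26, a 2.08-fold lower level. It met the criteria without adjustment, but not after adjustment over all rows tested (limma adjusted *P* = 0.21). To hypertrophic it was -0.97 with SE 0.39 and an interval of -1.90 to -0.04 (limma adjusted *P* = 0.18), 1.96-fold and just short of the 2-fold criterion. In *aadd* against WT resting it was -0.88 with SE 0.33 and an interval of -1.67 to -0.10, a 1.85-fold lower level (limma adjusted *P* = 0.46). These comparisons share the WT resting libraries, so they are not independent of each other. Between proliferative and hypertrophic the change was 0.09 (SE 0.40, interval -0.88 to 1.06).

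The *Cbx2* calls were lost when some single libraries were left out. The change to proliferative did not meet the criteria without WT resting replicate 1 (-0.86), WT resting replicate 2 (-1.01) or proliferative replicate 2 (-0.78), and the change in *aadd* did not without WT resting replicate 1 (-0.69), WT resting replicate 2 (-0.84), *aadd* replicate 2 (-0.60) or *aadd* replicate 3 (-0.96). The change to hypertrophic did meet them without WT resting replicate 3 (-1.22) or hypertrophic replicate 2 (-1.33). The direction was lower in each of these. In *aadd* every change that lost the call was still over 1.5-fold. Without WT resting replicate 2 the change to proliferative was still over 2-fold. Those calls were lost on *P*, which tends to rise with fewer libraries. Summed markers of skeletal muscle (10 genes, none at 0 throughout a group) were 8.22 to 14.6 NRPKM in WT resting. They were 18.2 to 56.2 in *aadd*, with no overlap. WT proliferative ran from 10.4 to 123 and WT hypertrophic from 15.5 to 46.3, so high muscle sums were not particular to *aadd*. In *aadd* 2 of the 2 muscle markers tested met the criteria as higher, against 3.78% of all rows. Those of tendon and perichondrium were 345 to 742 in WT resting and 550 to 974 in *aadd*, with 1 of 8 tested higher. The part of either in the changes of *aadd* was not tested.

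**Figure D4:**
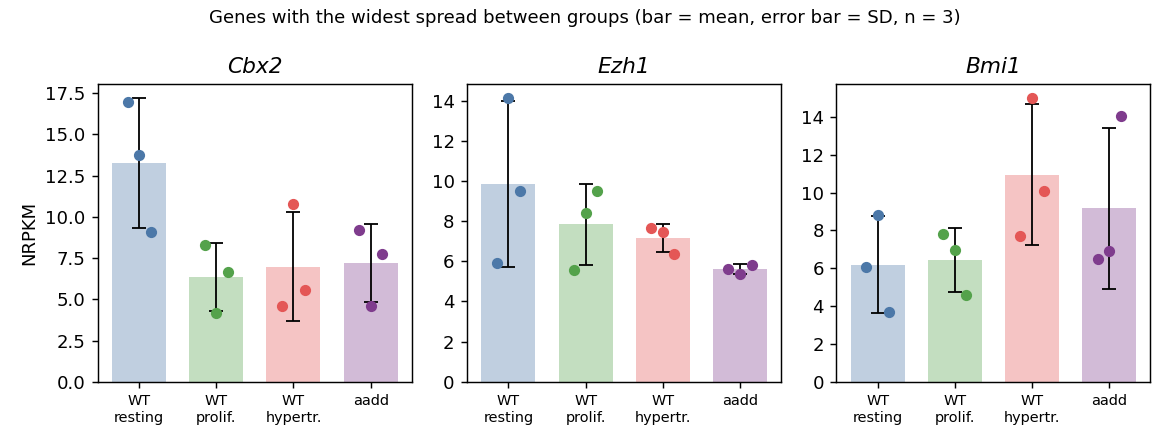
Levels of *Cbx2*, *Ezh1* and *Bmi1* in NRPKM on linear axes from 0, with 1 point per library, bars at the group mean and error bars of 1 SD (n = 3). For *Cbx2* the WT resting bar is at 13.3 and the others are at 6.37 to 7.20, for *Ezh1* the *aadd* points are tightest at 5.35 to 5.84, and for *Bmi1* every pair of groups overlaps.

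The remaining CBX genes were at the edge of detection. *Cbx8* was at 2.30, 3.75 and 3.18 NRPKM in WT resting, at 2.54, 0.780 and 0 in proliferative, at 0.615, 2.43 and 4.27 in hypertrophic and at 2.32, 0.901 and 1.91 in *aadd*. *Cbx7*, the CBX gene known from stem cells, was at 0.123, 0.140 and 0.0658 in WT resting, at 0.175, 0.0413 and 0.178 in proliferative, at 0.360, 0.780 and 0.0565 in hypertrophic and at 0.0605, 0.536 and 0.280 in *aadd*. For either gene every pair of groups overlapped. The library with the most held about 10.0 reads of *Cbx8* and 7.32 of *Cbx7*, or 45.5 and 15.3 if reads on the longest transcript were counted. At the exon length behind the lower figure, most *Cbx7* values stood for whole multiples of 0.488 reads. So 15.3 is the closer figure for that gene. Such read numbers leave differences between groups poorly measured, and no test of them is given. The rows of *Cbx2* and *Cbx8* lie 7166 bases apart on chromosome 11, which holds 4 of the 10 genes.

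Over the 12 libraries the set did not vary as a block. Among the 28 pairs of tested genes, Pearson *r* of log2 values was highest for *Suz12* and *Rnf2* at 0.69 and lowest for *Ezh1* and *Rnf2* at -0.60. The rows most like *Ezh2* were *Dek* at 0.962, which encodes a chromatin protein, *Cdc23* at 0.934, which encodes a subunit of the anaphase-promoting complex, and *Hnrnpd* at 0.933, which encodes an RNA-binding protein. *Dek* was at 108.5, 66.3 and 73.5 NRPKM in WT resting and at 73.4, 68.4 and 46.9 in hypertrophic. The rows most like *Cbx2* were *Rtel1* at 0.893, *1700006J14Rik* at 0.880 and *Ung* at 0.873. These are the highest values among all rows tested, over 12 libraries that share groups and depth, and are a description only.

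Of the other PRC2 genes, 7 were listed and 6 tested, and 1 was lower from WT resting to hypertrophic against 7.2% of all rows, while 0 met the criteria in the other 3 comparisons. A count of 1 in 6 is no result about the list. *Phf19*, whose protein brings PRC2 to its sites, was at 2.79, 5.69 and 5.95 NRPKM in WT resting, at 1.42, 3.68 and 3.23 in proliferative, at 1.44, 1.32 and 1.25 in hypertrophic and at 6.76, 6.61 and 4.24 in *aadd*. It fell by 1.70 on the log2 scale from resting to hypertrophic (limma adjusted *P* = 0.034), with no overlap. *Phf19* passed the filter only with the *aadd* libraries counted. The part of other cell types in its level was not tested.

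Of 17 other PRC1 genes, 16 were tested. In hypertrophic against WT resting 1 met the criteria (13% of all rows, 7.2% lower), *Cbx6*, a further CBX gene. It was at 13.7, 17.4 and 17.6 NRPKM in WT resting, at 8.37, 7.20 and 10.1 in proliferative, at 4.56, 5.998 and 5.54 in hypertrophic and at 17.6, 22.4 and 15.1 in *aadd*, so the 3 WT compartments did not overlap and *aadd* lay with WT resting. It fell by 1.58 on the log2 scale from resting to hypertrophic (limma adjusted *P* = 0.011), and its change in *aadd* was 0.17 (adjusted *P* = 0.84). In *aadd* 1 met the criteria (6.56% of all rows, 2.78% lower), *Bcor*, whose protein belongs to a variant PRC1. It was at 6.92, 8.29 and 7.40 in WT resting and at 5.45, 5.01 and 4.24 in *aadd*, with no overlap. The difference on the log2 scale was -0.61 (limma adjusted *P* = 0.33). That call was lost without WT resting replicate 2 (-0.54) or *aadd* replicate 3 (-0.52). Counts of 1 in 16 are no result about the list.

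Of the genes tied to removal of Polycomb marks or to the Trithorax group, 0 met the criteria in any of the 4 comparisons. Of all rows 5.53%, 9.67%, 13% and 6.56% did, so few calls could have been seen in lists of this size. The lists held 3 genes of the PR-DUB complex, which takes ubiquitin off H2A, 2 demethylases of H3K27 and 9 Trithorax genes. All of these passed the filter. The Trithorax median was -0.27, -0.10, -0.18 and -0.16 on the log2 scale in the 4 comparisons, taken in the order used above, and that of the other PRC1 genes -0.22, -0.03, -0.35 and -0.12. The medians of all rows tested were -0.06, 0.04, -0.02 and 0.01. The medians of the other PRC2 genes were 0.02, -0.02, 0.04 and 0.08, those of PR-DUB -0.05, 0.09, 0.08 and 0.04, and those of the demethylases 0.03, -0.20, -0.17 and -0.24.

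Hox genes, the best known targets of Polycomb, were counted by the same criteria. Of 39 in the table, 16 were tested. From WT resting to proliferative 5 were lower by the criteria and 0 higher, against 2.97% of all rows lower. From proliferative to hypertrophic 5 were lower (4.34% of all rows) and 0 higher. From resting to hypertrophic 11 were lower (7.2%) and 0 higher. In that comparison 5 of 6 chondrocyte markers were also lower, and hypertrophic replicates 2 and 3 had the high sums of osteoclast, endothelial and macrophage markers. Their part in the Hox counts was not tested. In *aadd* 10 were higher (3.78%), the mutated *Hoxd9*, *Hoxd10* and *Hoxd11* among them, and 1 was lower, the mutated *Hoxa11*. The filter bears on these counts: 6 of the 16 passed it only with the *aadd* libraries counted, and 4 of those did not reach 5 NRPKM in any WT library, so they had to differ in *aadd*. Of the 10 that passed in the WT libraries alone, 4 were higher in *aadd* and 1 was lower. The filter bears on the WT counts too. Among WT libraries *Hoxa2*, *Hoxd9*, *Hoxd10* and *Hoxd11* reached 5 NRPKM in resting ones only. All of these met the criteria as lower from resting to hypertrophic. *Hoxd9*, *Hoxd10* and *Hoxd11* also did so to proliferative. The counts from resting were thus partly set by the filter, so the shares of all rows are no fair measure of them. The counts are given as a description and support no contrast with the Polycomb set. Whether Hox levels follow those of Polycomb genes was not tested.

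The *Cdkn2* locus, another classic Polycomb target, was low outside WT hypertrophic replicates 2 and 3, and neither gene passed the filter. *Cdkn2a* was listed at 0 in 10 of the 12 libraries, with 0.816 and 0.177 NRPKM in WT hypertrophic replicates 2 and 3. *Cdkn2b* was at 0, 9.09 and 8.14 in WT hypertrophic and at most 1.36 elsewhere. Replicates 2 and 3 are the libraries with high sums of osteoclast, endothelial and macrophage markers. The part of those cells in the values was not tested.

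**Figure D5:**
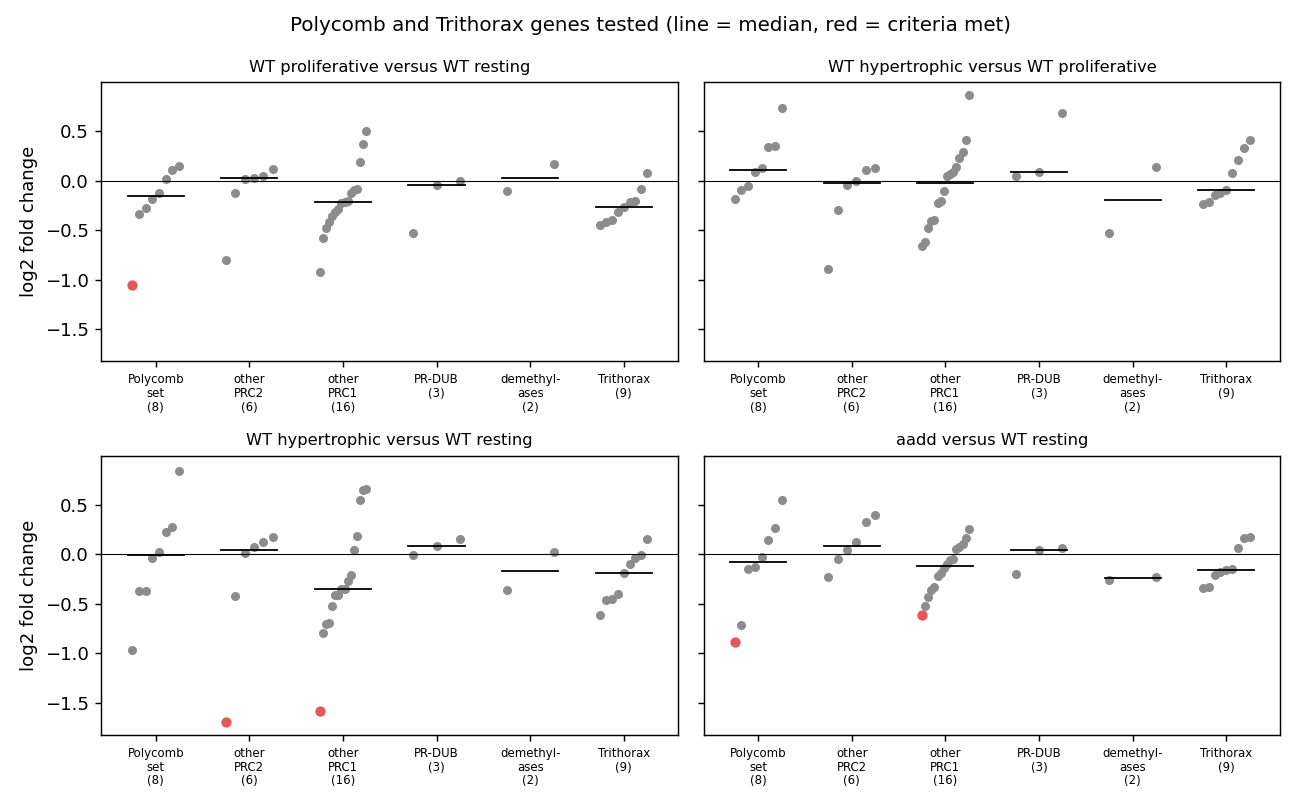
Log2 fold change of every tested gene of the Polycomb set, of the other PRC2, other PRC1, PR-DUB, demethylase and Trithorax lists, in the 4 pairwise comparisons, with the number tested in brackets, a line at the median and red points where the criteria were met. In *aadd* 1 gene of the Polycomb set (*Cbx2*) and 1 other PRC1 gene (*Bcor*) are red and below 0, and from WT resting to hypertrophic *Phf19* and *Cbx6* are.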

How the data were processed

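RNA was amplified with the NuGEN Ovation RNA-Seq System V2 and made into Nextera libraries. Per the submitters' processing notes TopHat and build mm10 were used, and the authors removed duplicate and multiply aligned reads before GeneSpring was used to quantify expression. What was deposited is RPKM after another normalization across libraries (NRPKM), on a linear scale. How that normalization was done and whether counting used strand are not given in the sources used here. *Eed*, *Ezh2* and *Suz12* overlap antisense transcripts and *Cbx7* overlaps the end of a neighbour, so their reads may be shared.

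Here log2(NRPKM + 0.1) was tested in limma 3.58.1 under R 4.3.3 for rows that reached 5 NRPKM in 3 or more of the 12 libraries (10936 of 36186 rows), each pair of groups in a fit of its own 6 libraries. Fold changes are on this scale, which understates changes of low genes. A call needed FC of 2 or more, or 1.5 for *aadd*, and an unadjusted *P* of 0.05 or less. Adjusted *P* is Benjamini-Hochberg over all rows tested. Plots were drawn with matplotlib 3.10.9 and tables built with pandas 2.3.3 and numpy 2.4.6 in Python 3.11.15. The fit was tried on simulated data for WT proliferative against WT resting, with 200 of 10936 genes changed. A true 2-fold change met the criteria in 46% of changed genes and reached a limma adjusted *P* under 0.05 in 0%. For a 1.5-fold change these shares were 8% and 0%, and for a 4-fold change 95% and 69%. The FC criterion was 2 throughout, so a true 2-fold change lay at the cutoff. The 8% does not apply to the FC of 1.5 used for *aadd*. Noise was drawn from the spread within all groups, and few genes were changed, so these shares hold for that setting only.

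The table gives no counts. Depth was read from the smallest step between values of 1581 single-exon genes, where 87.4% to 95.2% of values were within 5% of whole reads, and corresponds to 1.89e+06 to 3.24e+06 reads in a library. Read numbers and errors derived from it cover counting error only.

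The 10 genes and the lists were chosen with earlier results of these data known. The genes named are the 10, every gene of the wider lists that met the criteria (Hox genes as counts), and the 3 rows closest to *Ezh2* and *Cbx2*. Some Hox and marker genes are named as well, to describe the libraries or the filter. Deviations from the group means of same-numbered libraries correlated at 0.28, 0.18 and 0.20 between WT resting and proliferative, which counts as pairing by a limit of 0.1, though no label gives a shared origin. The study may number the same WT libraries in another order, in which case the block would not join libraries of 1 set. The other comparisons did not reach that limit in each pair. Between WT resting and hypertrophic the correlations were 0.066, 0.063 and 0.11, though each library still correlated best with the one of its own number. Alternatives were another pseudocount, other filters and scalings, all libraries in 1 fit, the replicate block, a variance trend and each library left out.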

Additional observations from a re-analysis of the deposited data

How the results depend on the processing

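From WT resting to proliferative the number of Polycomb genes that met the criteria was 1 and became 0 with a pseudocount of 1 or quantile normalization. In *aadd* it was 1 and became 0 with no filter on low values. It became 2, with *Ezh1* beside *Cbx2*, with a pseudocount of 1, the filter over the libraries compared, quantile normalization or all 12 libraries in 1 fit. With each library left out in turn it ranged from 0 to 1 from WT resting to proliferative, from WT resting to hypertrophic (0 with all libraries) and in *aadd*, where without WT resting replicate 1 the gene was *Ezh1*. It was 0 under every alternative run from proliferative to hypertrophic and in the F test over 4 groups. The replicate block left 1, 0, 0 and 1 in the pairwise comparisons and 0 in the F test. From WT resting to proliferative, where the numbers pair, the block took the rows with an adjusted *P* under 0.05 from 68 to 9 over all genes. It changed no call of a gene of the set.

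*Cbx2* met the criteria in 10 of 15 settings from WT resting to proliferative (log2 fold change -1.30 to -0.78, limma adjusted *P* 0.17 to 0.46) and in 10 of 15 in *aadd* (-1.13 to -0.60, adjusted *P* 0.41 to 0.86). *Ezh1* in *aadd* met them in 5 of 15 (-1.04 to -0.41, adjusted *P* 0.25 to 0.93). Over 448 alternatives for single genes of the set, 429 kept their side of the criteria, 10 lost and 9 gained a call, and 20 values of uncalled genes changed sign, none past 0.27 in size. For *Phf19*, *Cbx6* and *Bcor* the alternatives were chosen after seeing the data. *Phf19* and *Cbx6* kept their calls, which use unadjusted *P*, from WT resting to hypertrophic in 14 of 14 and 15 of 15 settings that tested them. The filter over the libraries compared removes *Phf19* from testing. In that comparison limma adjusted *P* ran from 0.012 to 0.135 for *Phf19* and from 0.00098 to 0.063 for *Cbx6*. Neither gene therefore stayed significant after adjustment in every setting. *Bcor* kept its call in *aadd* in 11 of 15 settings (limma adjusted *P* 0.28 to 0.76). The uncalled change of *Phf19* in *aadd* was 0.33 and ranged from -0.018 (without WT resting replicate 1) to 0.54 with a library left out. Depth limits *Cbx7* and *Cbx8*, with at most 7.32 and 10.0 reads, or 15.3 and 45.5 if reads on the longest transcript were counted. Of these, 15.3 is the closer figure for *Cbx7*.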
